A study of Gallus gallus with 9 samples.

Results

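The 8 genes described here encode secreted factors that act on blood and lymphatic vessels: *VEGFA*, *VEGFC* and *VEGFD* of the vascular endothelial growth factor family, *APLN* (apelin), the angiopoietins *ANGPT1* and *ANGPT2*, and the angiopoietin-like factors *ANGPTL1* and *ANGPTL4*. They were chosen by gene symbol, as a named family, from the 16635 genes of the deposited table. The choice was made with earlier results of these data known, and 5 further family ligands found there are described apart. All 8 were present in the deposited table and passed the filter on low values. RNA came from the retinal pigment epithelium (RPE) of 9 White Leghorn chicken embryos, 3 per condition, operated on or collected at embryonic day 4, cut out of cryosections by laser capture. The intact RPE group had no surgery. In the t-rRPE group (transiently reprogrammed RPE) the neural retina had been removed 6 h before collection, with no added growth factor. In the rRPE group (reprogrammed RPE) the retina had been removed 6 h before collection in the same way and a bead soaked in FGF2 had been placed in the eye cup, and only RPE close to the bead was captured, as the study states. No group received a bead without FGF2 according to the labels, and the labels give no further 6 h of incubation for intact embryos, so bead and FGF2, and surgery and elapsed time, cannot be told apart in these comparisons.

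VEGFA is the main growth factor of blood vessel endothelium and acts through the receptor tyrosine kinase KDR, while FLT1 binds it tightly and largely limits its action. VEGFC and VEGFD act through FLT4 and, once cut by proteases, through KDR, and are best known for lymphatic vessel growth. Apelin is a short peptide that activates the G protein-coupled receptor APLNR on endothelial cells. ANGPT1 activates the receptor TEK and steadies vessels, and ANGPT2 binds the same receptor and often opposes it, with TIE1 as a partner of TEK. The angiopoietin-like proteins share the fold of the angiopoietins but do not bind TEK, and ANGPTL4 is best known in mammals as an inhibitor of lipoprotein lipase that is induced by fasting, PPAR ligands and low oxygen. In the eye the RPE lies against the vessels of the choroid, and secretion of VEGFA by the RPE is needed in mice for those vessels to form.

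Values are DESeq2 normalized counts, that is, reads per gene divided by 1 size factor for each library, and they are given for replicates 1, 2 and 3 in that order. Recovered reads came to 26167206 to 45563924 for each library, and 1 read was worth 0.768 to 1.303 normalized counts. Fold changes are on the log2(normalized count + 1) scale from a limma fit of all 9 libraries, with Benjamini-Hochberg adjustment over the 16535 genes tested. A gene was called a DEG (differentially expressed gene) when its adjusted p did not exceed 0.05 and its log2 fold change was 1 or more in size. Both comparisons with RPE use the same 3 RPE libraries and are therefore not independent. Transcript lengths were not used, so which of several genes has more transcripts cannot be read from these values. Where a gene is said to have the highest count of its list, this is the normalized count without regard to length, and ratios of genes are compared only between libraries. The captured tissue carried the markers of its label, with 13 RPE identity genes summing to 261240 to 456670 normalized counts, and also RNA of red blood cells, with 8 erythroid genes summing to 146200 to 535350, and of endothelium. *MITF*, the master regulator of the RPE, fell in rRPE by 1.78 on the log2 scale (limma adjusted p = 0.014). That call was lost without RPE replicate 2 or 3 or rRPE replicate 1 or 3 (0.0548 to 0.0784). In t-rRPE *MITF* was also below RPE in every library (log2 -1.29, SE 0.28, limma adjusted p = 0.0742). This did not pass the test, although DESeq2 called it.

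Of the 8 factors, *ANGPTL4* was the only DEG in t-rRPE (1 of 8, against 0.671% of all genes tested), and *ANGPTL4* and *APLN* were the DEGs in rRPE (2 of 8, against 1.03%). *ANGPTL4* rose after retinectomy with or without FGF2, and *APLN* fell in rRPE, with lower values than RPE in t-rRPE as well. Between rRPE and t-rRPE none was a DEG (0 of 8, against 0.0544%), none had an unadjusted p of at most 0.05 (9.31% of all genes did), and edgeR and DESeq2 also gave 0. By that unadjusted measure 3 of 8 passed in t-rRPE (12.4% of all genes) and 4 of 8 in rRPE (12%). These DEG and unadjusted shares over all genes are also the ones to set beside the gene lists below. The median log2 fold change of the 8 was 0.31 in t-rRPE and 0.64 in rRPE, and 0.00 over all genes tested in both comparisons. Because the 8 were chosen with earlier results known, such shares and medians are given as description only.

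**Figure D1:**
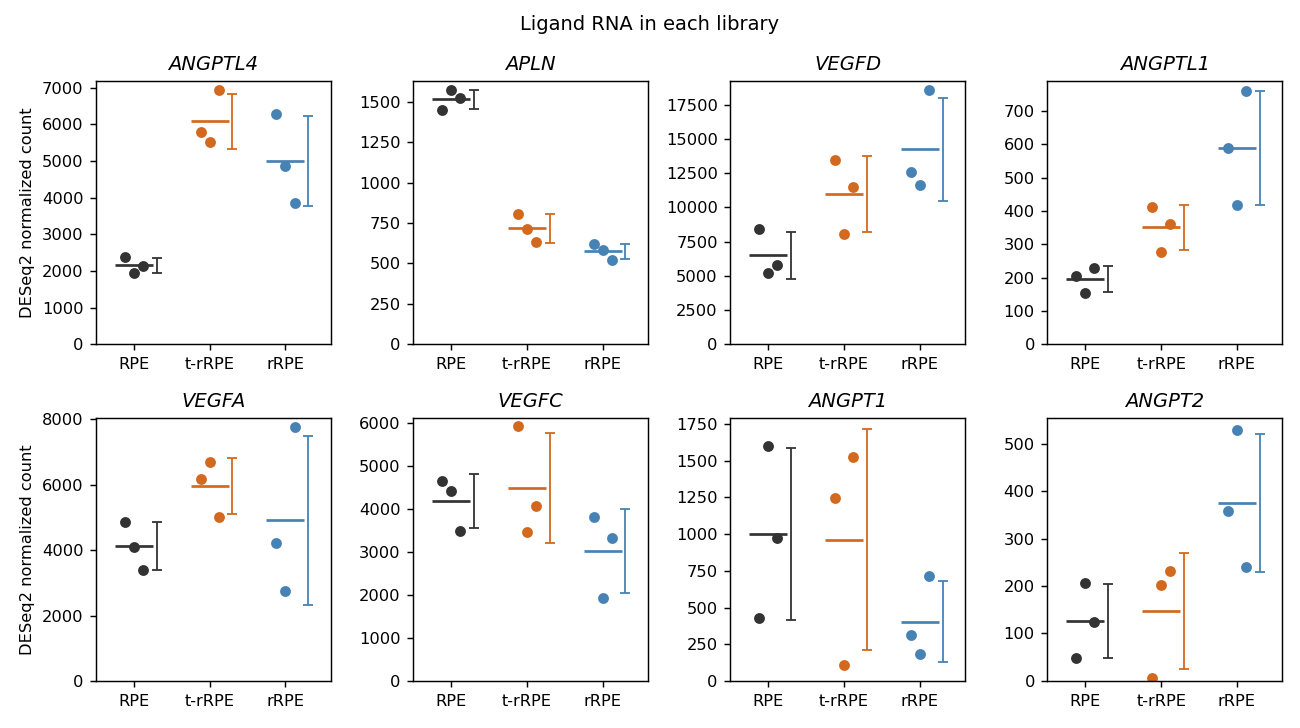
Normalized count of each of the 8 factors in each library (vertical axis, linear, from 0), by group. Points are the 3 replicates, horizontal lines group means and vertical bars the SD. The 3 RPE values of *ANGPTL4* (1941 to 2366) lie below all 6 others, those of *APLN* (1451 to 1573) lie above all 6 others, and *ANGPT1* and *ANGPT2* scatter widely.

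*ANGPTL4* was measured at 2366, 1941 and 2134 normalized counts in RPE (2147 ± 213, SD, n = 3). Among t-rRPE libraries it was 5799, 5515 and 6927 (6080.23 ± 747). In rRPE it was 6273, 4855 and 3841 (4989.54 ± 1222). Every library taken after retinectomy was above every intact one, while the t-rRPE and rRPE values overlapped. *ANGPTL4* rose 2.83-fold in t-rRPE (log2 1.50, SE 0.20, 95% interval 1.05 to 1.94, limma adjusted p = 0.0122). In rRPE the rise was 2.29-fold (log2 1.19, SE 0.20, 0.75 to 1.64, limma adjusted p = 0.0224). The difference between rRPE and t-rRPE was -0.31 (log2; SE 0.20, -0.75 to 0.14, limma adjusted p = 0.703), so a further change with the FGF2 bead was not detectable, and the interval covers 0. Lens genes were high in the same libraries. Of 15 found, limma called 7 higher in t-rRPE and 6 higher in rRPE (0.671% and 1.03% of all genes were DEGs, in either direction). Their summed level was 1232 to 1993 in RPE, 49583 to 410750.0 in t-rRPE and 23098 to 52460.0 in rRPE, with *CRYBA4*, *BFSP1* and *MAFA* at 0 in every RPE library. Their part in the *ANGPTL4* result was not tested. In captured tissue more RNA per cell and more cells of an expressing type cannot be told apart. The t-rRPE call was lost, with fold changes of 1.40 to 1.57 on the log2 scale over all 9 omissions, without RPE replicate 2 (limma adjusted p = 0.0704), RPE replicate 3 (0.0588) or t-rRPE replicate 3 (0.0532). The rRPE call was lost without RPE replicate 2 (0.0967), RPE replicate 3 (0.0819), rRPE replicate 1 (0.0896) or rRPE replicate 2 (0.0915), at log2 fold changes of 1.01 to 1.37 over all omissions. With limma but no mean-variance trend it was no DEG in either comparison (adjusted p = 0.0871 and 0.144).

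*ANGPTL4* is a textbook target of the PPAR nuclear receptors and of the hypoxia-inducible factors in mammals, so other genes known from those 2 responses were examined. Of 12 PPAR response genes none was a DEG in t-rRPE, with 1 at an unadjusted p of at most 0.05 (12.4% of all genes), 0 by edgeR and 1 by DESeq2 (*CD36*). In rRPE 1 was a DEG, *PLIN2*, which encodes a coat protein of lipid droplets. *PLIN2* stood at 2118, 986 and 1431 in RPE, at 1632, 1919.68 and 3471 in t-rRPE and at 4993, 7625 and 7631 in rRPE. Its rRPE libraries were above all 6 others, and it rose in rRPE by 2.20 (log2; SE 0.34, limma adjusted p = 0.0133). In rRPE 2 of the 12 had an unadjusted p of at most 0.05 (12% of all genes), edgeR called *PLIN2* and DESeq2 called *PLIN2* and *PPARG*. Fitted values were higher for 11 of the 12 in t-rRPE (median log2 0.29) and for 10 of the 12 in rRPE (median 0.45), counts that fell by 1 under some scalings. Their part in the *ANGPTL4* result was not tested. Of 25 hypoxia response genes found in the table none was a DEG in t-rRPE, with 2 at an unadjusted p of at most 0.05 (12.4% of all genes) and 0 by edgeR and DESeq2. In rRPE 1 was a DEG, *NDRG1*, a stress-induced gene, at 273, 72.0 and 139.854 in RPE, 321, 398 and 268 in t-rRPE, with 1539, 1852 and 754 in rRPE. Its rise in rRPE was 3.19 (log2; SE 0.55, limma adjusted p = 0.0236). In rRPE 6 of the 25 had an unadjusted p of at most 0.05 (12% of all genes), edgeR called *NDRG1* and DESeq2 *NDRG1* and *DDIT4*. Fitted values were higher for 14 of the 25 in t-rRPE (median log2 0.03) and for 19 in rRPE (median 0.30). In t-rRPE the sign of that median depended on the scaling, being 0.04 after quantile normalization and -0.01 with TMM factors in edgeR. The *PLIN2* call was lost without RPE replicate 2 or 3 or rRPE replicate 2 or 3 (limma adjusted p = 0.0581 to 0.0855). The *NDRG1* call was lost without RPE replicate 2 or 3 or rRPE replicate 1 or 2 (limma adjusted p = 0.0779 to 0.125).

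*APLN* had the narrowest spread of the 8 factors, with a residual SD of 0.13 on the log2 scale. It was 1451, 1573 and 1525 normalized counts in RPE (1516 ± 61.3, SD, n = 3). The t-rRPE values were 809, 717 and 631 (719 ± 89.3), and in rRPE 618, 584 and 522 (575 ± 49.0). The 3 groups did not overlap at all, in the order RPE, t-rRPE, rRPE from high to low. *APLN* fell 2.64-fold in rRPE (log2 -1.40, SE 0.26, 95% interval -1.98 to -0.83, limma adjusted p = 0.0321). In t-rRPE the value was 2.12-fold lower (log2 -1.08, SE 0.26, -1.66 to -0.51, limma adjusted p = 0.112), which did not pass the test, although DESeq2 on recovered reads called it (adjusted p = 3.88e-04). The difference between rRPE and t-rRPE was -0.32 (log2; SE 0.26, -0.89 to 0.25, limma adjusted p = 0.766), so the neighbouring levels in that order were not separated by the test. limma moves the variance of a gene toward that of genes of like abundance, and for *APLN* this widened the SE. The rRPE call was lost with the replicate number as a block (limma adjusted p = 0.0641). It was also lost when any RPE or rRPE library was left out. The limma adjusted p was then 0.0756, 0.124 and 0.125 without RPE replicates 1, 2 and 3, and 0.0895, 0.106 and 0.0915 without rRPE replicates 1, 2 and 3, at log2 fold changes of -1.46 to -1.33.

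The receptor of apelin and the markers of endothelium were also low after retinectomy. *APLNR* stood at 178, 145 and 300.456 normalized counts in RPE, at 0, 128 and 23.5 in t-rRPE and at 29.4, 18.8 and 59.5 in rRPE. Both groups lay below RPE in every library, giving log2 fold changes of -3.76 (SE 1.56, limma adjusted p = 0.372) and -2.59 (SE 1.56, limma adjusted p = 0.586). *CDH5*, the cadherin of endothelial junctions, stood at 1858, 2631 and 3366 in RPE, 433, 502 and 847 in t-rRPE, with 654, 402 and 492 in rRPE. *CDH5* fell in t-rRPE (log2 -2.16, SE 0.36, limma adjusted p = 0.0271) and in rRPE (log2 -2.33, SE 0.36, limma adjusted p = 0.0131), and was the only DEG among the 17 of 20 endothelial genes found. The *CDH5* call in t-rRPE was lost without RPE replicate 2 or 3, t-rRPE replicate 1 or 3 or rRPE replicate 1 (limma adjusted p = 0.0509 to 0.119), and in rRPE without RPE replicate 2 or 3 or rRPE replicate 2 (0.0671 to 0.0698). Of these 17 genes 15 had lower fitted values in t-rRPE (median log2 -1.89) and 13 in rRPE (median -1.58). In edgeR and in DESeq2 15 were lower in each comparison, and edgeR called only *CDH5* in each. DESeq2 called *CDH5*, *SOX18*, *FLI1* and *KDR* in t-rRPE and *CDH5*, *FLI1*, *TEK* and *EGFL7* in rRPE. All of these had lower limma fitted values than in RPE. For *FLI1* the log2 fold changes were -2.60 (limma adjusted p = 0.104) and -2.69 (limma adjusted p = 0.0677). The summed level of the 17 was 9339.8, 17646 and 17798 in RPE, 5135, 5286 and 7669 in t-rRPE, with 6659.8, 6329 and 6326 in rRPE. Every retinectomy library was thus below every intact one. None of the 17 was at 0 in all libraries of a group. Not all of the list was low. *PECAM1* had log2 fold changes of -0.04 (SE 0.33) and 0.15 (SE 0.33) in t-rRPE and rRPE, and *CLDN5* had 0.03 (SE 0.79) in rRPE. Fitted values of *SOX17* and *ERG* were higher in both groups. None of these differences passed the test. *ERG* was at 0 in RPE replicate 1, and its mean count went the other way. That mean was 354 for intact tissue and lower after retinectomy, at 143 (t-rRPE) and 204 (rRPE). The summed endothelial level was lower in the same libraries as *APLN*, and its part in the *APLN* result was not tested. Mesenchyme and pericyte markers had 10 of 14 lower fitted values in t-rRPE (median log2 -1.47) and 8 of 14 in rRPE (median -0.63), with *TAGLN*, called higher in rRPE, the only DEG. Their summed level, 12756 to 16428 in RPE, 10478 to 13904 in t-rRPE and 13863 to 16267 in rRPE, overlapped between RPE and both other groups, and their part was not tested. Of 11 genes of neural retina, the tissue removed by the surgery, 7 had lower fitted values in t-rRPE (median log2 -0.11) and 6 in rRPE (median -0.40). limma called 1 of them higher in each comparison, edgeR called 0 in t-rRPE and 1 in rRPE, and their part was not tested.

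**Figure D2:**
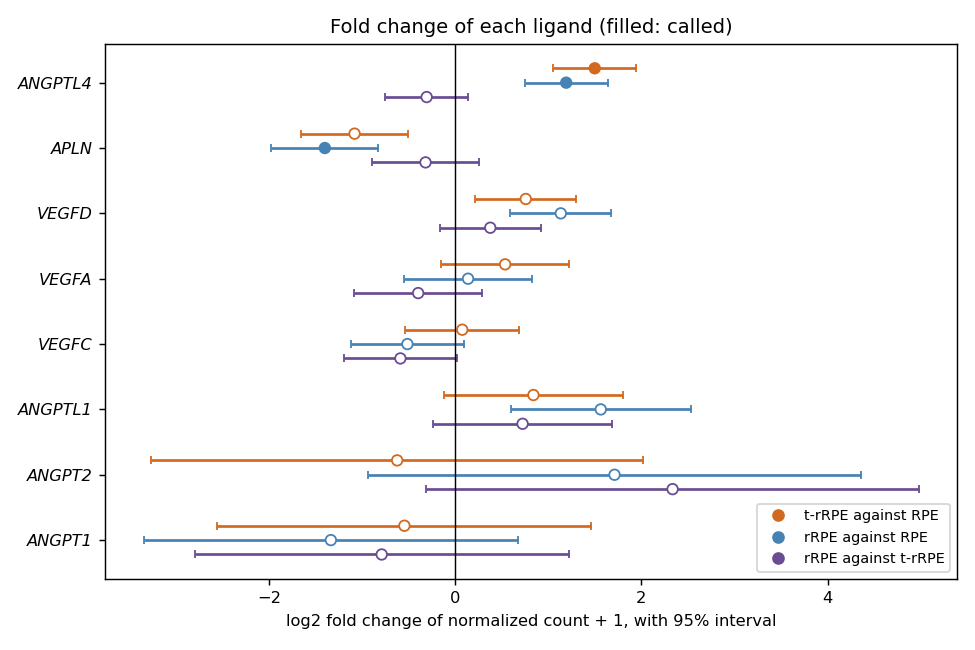
Log2 fold change of each factor (horizontal axis, log2(normalized count + 1) scale) in the 3 comparisons, with points for the limma estimate and bars for its 95% interval, n = 3 libraries for each group. The intervals of *ANGPTL4* lie above 0 and those of *APLN* below 0 in both comparisons with RPE, and all 8 intervals cover 0 between rRPE and t-rRPE.

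The 3 VEGF genes did not move alike in fitted value, and none was a DEG in any comparison by limma. The study, which used DESeq2 with the same thresholds, lists *VEGFD* among its DEGs. There it is in a cluster described as raised in t-rRPE and raised more in rRPE. *VEGFD* was 8428, 5233 and 5812 normalized counts in RPE (6491 ± 1702, SD, n = 3). In t-rRPE it was 13466, 8024 and 11469.7 (10987 ± 2753), and in rRPE 12595, 11609.5 and 18542 (14249 ± 3750.4). All 3 rRPE values were above all RPE values, while 1 t-rRPE library, replicate 2, fell within the RPE range. The log2 fold change in rRPE was 1.13 (SE 0.25, 95% interval 0.59 to 1.68), with a limma adjusted p of 0.0592 just past the threshold. *VEGFD* was called in rRPE by DESeq2 (adjusted p = 8.12e-04) and after quantile normalization (limma adjusted p = 0.0446). In limma it was also called with the replicate number as a block, and without t-rRPE replicate 1 (0.0494) or replicate 2 (0.0346). By edgeR it was not called. In t-rRPE its log2 fold change was 0.76 (SE 0.25, 0.21 to 1.30, limma adjusted p = 0.248).

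*VEGFA*, the factor that drives vessel growth, was 4878, 4098 and 3401 in RPE (4126 ± 739, SD, n = 3). In t-rRPE it was 6187, 6686 and 5010.18 (5961 ± 860.37), and in rRPE 4208, 2765 and 7781 (4918 ± 2582). The t-rRPE libraries were all above the RPE libraries, whereas rRPE held both the lowest and the highest value of the 9. The log2 fold changes were 0.54 in t-rRPE (SE 0.31, -0.15 to 1.23, limma adjusted p = 0.523) and 0.14 in rRPE (SE 0.31, -0.55 to 0.83, limma adjusted p = 0.912). Without rRPE replicate 3 the value in rRPE turned to -0.26. *VEGFC* was 4649, 4409 and 3473 in RPE, 5917, 3452 and 4076 in t-rRPE, with 3799.96, 1932 and 3328 in rRPE. Its 3 groups overlapped throughout. The log2 fold changes of *VEGFC* were 0.08 in t-rRPE (SE 0.28, -0.54 to 0.69, limma adjusted p = 0.955) and -0.51 in rRPE (SE 0.28, -1.13 to 0.10, limma adjusted p = 0.516), and the first turned to -0.05 without RPE replicate 3 and to -0.14 without t-rRPE replicate 1. Between rRPE and t-rRPE the differences were 0.38 for *VEGFD* (log2; SE 0.25, limma adjusted p = 0.702), -0.40 for *VEGFA* (SE 0.31, limma adjusted p = 0.762) and -0.59 for *VEGFC* (SE 0.28, 95% interval -1.20 to 0.02, limma adjusted p = 0.555).

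Ratios of factors within a library do not depend on the size factor, and 4 of them were formed after the values had been seen. The ratio of *VEGFD* to *VEGFC*, which share the receptor FLT4, was 1.81, 1.19 and 1.67 in RPE, 2.28, 2.32 and 2.81 in t-rRPE, with 3.31, 6.01 and 5.57 in rRPE. The 3 groups did not overlap, and rRPE was 3.13-fold above RPE and 1.95-fold above t-rRPE. The ratio of *VEGFD* to *VEGFA* was 1.73, 1.28 and 1.71 in RPE, 2.18, 1.20 and 2.29 in t-rRPE, with 2.99, 4.20 and 2.38 in rRPE, where every rRPE library exceeded all 6 others. The ratio of *ANGPTL4* to *APLN* was 1.63, 1.23 and 1.40 in RPE, 7.16, 7.69 and 11.0 in t-rRPE, with 10.1, 8.31 and 7.36 in rRPE. It was 5.99-fold higher in t-rRPE and 6.04-fold higher in rRPE than in RPE, and the 2 retinectomy groups overlapped. In exact two-sided permutation tests of 12 ratio comparisons, 3 libraries against 3 cannot give a p under 0.1, and the adjusted p of those that reached it was 0.15.

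**Figure D3:**
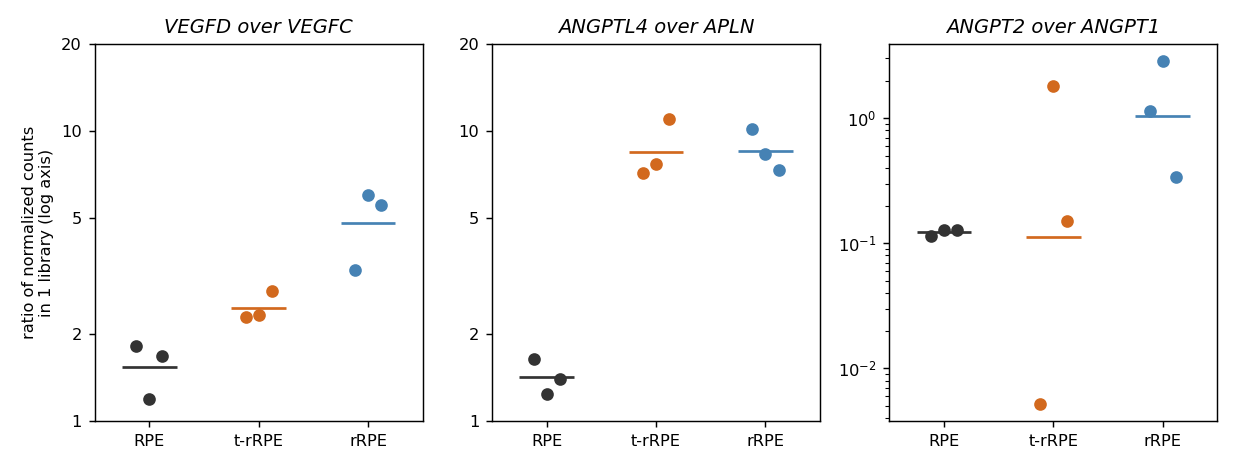
Ratio of normalized counts of 2 factors within each library (vertical axis, log scale), by group, with points for libraries and lines for geometric means. *VEGFD* over *VEGFC* runs from 1.19 to 6.01 without overlap of the 3 groups, and *ANGPTL4* over *APLN* is at least 7.16 in every retinectomy library against at most 1.63 in RPE.

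The receptors that these factors bind had lower fitted values after retinectomy in most cases, and none passed the test. In t-rRPE 7 of 8 receptors were lower than in RPE (median log2 -2.34), and in rRPE also 7 of 8 (median -1.78), with 0 DEGs in limma and edgeR in both comparisons. By the unadjusted p there were 3 in t-rRPE and 1 in rRPE (12.4% and 12% of all genes), and DESeq2 called *KDR* in t-rRPE and *TEK* in rRPE. The count of lower receptors was the same under quantile and upper-quartile scaling and in edgeR and DESeq2, but the size of the median was not. In t-rRPE the median log2 was -1.31 in edgeR and -1.30 in DESeq2, and in rRPE -1.699 and -1.705. *KDR*, the signalling receptor of VEGFA, was 594, 1098 and 2012 in RPE, 25.0, 261 and 425 in t-rRPE, with 511, 382 and 314 in rRPE. All 6 retinectomy values were below the lowest RPE value, giving log2 fold changes of -2.94 (SE 0.89, limma adjusted p = 0.209) and -1.47 (SE 0.89, limma adjusted p = 0.586). *FLT1*, its high-affinity partner, was 437, 314 and 81.5 in RPE, 139, 26.1 and 298 in t-rRPE, with 307, 38.6 and 0 in rRPE, and all groups overlapped. *FLT4*, the receptor of VEGFC and VEGFD, was 424, 1590.09 and 1824 in RPE, 4.34, 481 and 717 in t-rRPE, with 157, 378 and 326 in rRPE. Only the rRPE values of *FLT4* lay wholly below RPE, with a log2 fold change of -1.99 (SE 1.48, limma adjusted p = 0.692).

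The neuropilins, co-receptors for VEGF and semaphorins that neural and epithelial cells also use, showed no such drop. *NRP1* was 749, 1242 and 1358 in RPE, 805, 888 and 912 in t-rRPE, with 968, 1402 and 702 in rRPE, giving log2 fold changes of -0.32 (SE 0.33) and -0.14 (SE 0.33). *NRP2* was 601, 185 and 509 in RPE, 833, 444 and 272 in t-rRPE, with 598, 1130.14 and 853 in rRPE, giving log2 fold changes of 0.28 (SE 0.55) and 1.12 (SE 0.55, limma adjusted p = 0.463). Their groups overlapped in every comparison. Summed over the 8 receptors the level was 3413 to 7015 in RPE, 1999.8 to 3019 in t-rRPE and 2433 to 3561 in rRPE. The receptors include *KDR*, *FLT1*, *FLT4*, *TEK*, *TIE1* and *APLNR*, which also belong to the endothelial list whose sum is given above, so the lower values of both lists are in part the same measurement, and the part of endothelial cell number in them was not tested.

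**Figure D4:**
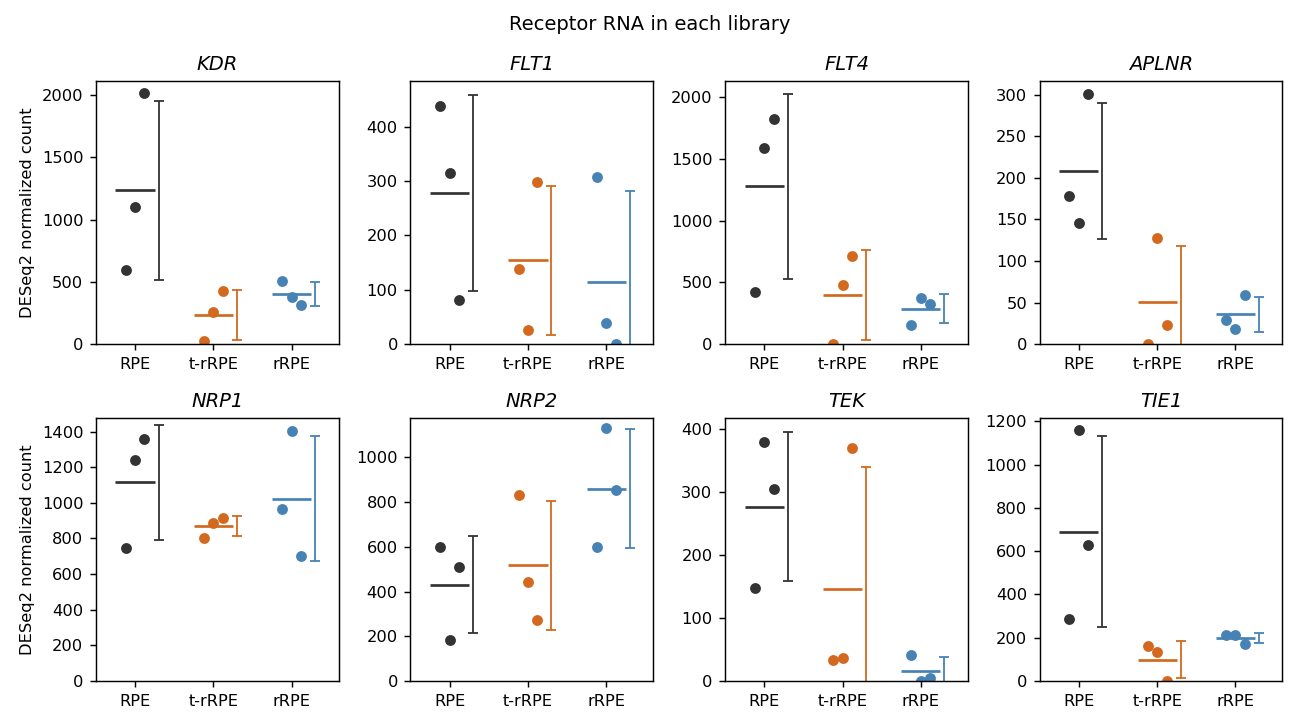
Normalized count of the 8 receptors in each library (vertical axis, linear, from 0), by group, with points for the 3 replicates, lines for group means and bars for the SD, cut off at 0. All retinectomy values of *KDR*, *TIE1* and *APLNR* lie below all RPE values, and those of *NRP1* and *NRP2* overlap with RPE.

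The angiopoietins had the largest residual SDs of the 8 factors on the log2 scale, 1.45 for *ANGPT1* and 1.76 for *ANGPT2*, and none of their differences passed the test. *ANGPT1*, the agonist of TEK, was 426, 1599 and 975 in RPE, 1249, 111 and 1528 in t-rRPE, with 312, 185 and 711 in rRPE. The coefficient of variation within a group was 58.7 to 78.0%, and the groups overlapped. Its log2 fold changes were -0.55 in t-rRPE (SE 0.92, 95% interval -2.56 to 1.46, limma adjusted p = 0.846) and -1.34 in rRPE (SE 0.92, -3.35 to 0.67, limma adjusted p = 0.651), and the first turned to 0.66 without t-rRPE replicate 2. *ANGPT2* was 49.0, 206 and 124 in RPE, 6.51, 202 and 232 in t-rRPE, with 357, 529 and 239 in rRPE. Every rRPE library was above all 6 others, and t-rRPE replicate 1 held only 6 reads. The log2 fold change in rRPE was 1.71 (SE 1.21, -0.93 to 4.36, limma adjusted p = 0.666). In t-rRPE it was -0.62 (SE 1.21, -3.27 to 2.02, limma adjusted p = 0.873) and turned to 0.99 without t-rRPE replicate 1, to 0.20 in edgeR and to 0.21 in DESeq2. Against t-rRPE it was 2.34 in rRPE (SE 1.21, -0.31 to 4.98, limma adjusted p = 0.583), and 0.72 without that library.

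The ratio of *ANGPT2* to *ANGPT1* was 0.115, 0.129 and 0.128 in RPE, 0.00521, 1.82 and 0.152 in t-rRPE, with 1.15, 2.86 and 0.336 in rRPE. It was nearly constant in RPE although each gene varied there several-fold, and in rRPE it lay above RPE in every library, 8.35-fold on geometric means (exact permutation p = 0.1, the smallest possible, adjusted p = 0.15). *TEK*, the shared receptor, was 147, 380.121 and 304 in RPE, 32.6, 36.4 and 370.159 in t-rRPE, with 40.6, 0 and 5.13 in rRPE. In rRPE it was below RPE in every library, with a log2 fold change of -5.35 (SE 1.47, -8.57 to -2.13, limma adjusted p = 0.125). *TIE1* was 284, 1158 and 626 in RPE, 161, 133 and 0 in t-rRPE, with 214, 211 and 172 in rRPE, also without overlap with RPE, at log2 fold changes of -4.41 (SE 1.59, limma adjusted p = 0.298) and -1.57 (SE 1.59, limma adjusted p = 0.756). In the RefSeq annotation the span of *ANGPT2* overlaps that of *MCPH1*, and the counting used no strand. Overlap of their exons was not looked up, so whether any reads were shared is not known. *MCPH1* was 929, 1472 and 933 in RPE, 299, 497 and 248 in t-rRPE, with 529, 971 and 350.097 in rRPE. Its replicates ranked as those of *ANGPT2* did within RPE and within rRPE, while its group means were ordered differently, and sharing of reads was not tested.

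*ANGPTL1*, an angiopoietin-like protein that restrains vessel growth in mouse models, was stepped across the 3 groups. It was 205, 153 and 228 in RPE (195 ± 38.3, SD, n = 3). In t-rRPE it was 413, 278 and 359.732, with a mean of 350.419 ± 68.1, and in rRPE it was 589, 418 and 759.742, with a mean of 589 ± 171. All 3 groups were apart from each other, in the order RPE, t-rRPE, rRPE from low to high, but no step passed the test. The log2 fold change in rRPE was 1.56 (2.96-fold, SE 0.44, 95% interval 0.60 to 2.53, limma adjusted p = 0.136), and DESeq2 called it (adjusted p = 0.00593). In t-rRPE it was 0.84 (SE 0.44, -0.13 to 1.81, limma adjusted p = 0.465), and between rRPE and t-rRPE 0.72 (SE 0.44, -0.24 to 1.69, limma adjusted p = 0.668). The span of *ANGPTL1* overlaps that of *RALGPS2* in RefSeq, and overlap of their exons was not looked up. *RALGPS2* was 2437, 2715 and 2649 in RPE, 5130.31, 3545 and 2599 in t-rRPE, with 2521, 2686 and 3229.93 in rRPE, with all 3 groups overlapping, and sharing of reads was not tested.

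Counted by non-overlapping groups, 4 of the 8 factors differed between t-rRPE and RPE (*VEGFA*, *APLN*, *ANGPTL1* and *ANGPTL4*), against 15.1% of all genes tested. In rRPE there were 5 (*VEGFD*, *APLN*, *ANGPT2*, *ANGPTL1* and *ANGPTL4*), against 18.6%. Between rRPE and t-rRPE there were 3 (*APLN*, *ANGPT2* and *ANGPTL1*), against 12.5%. *APLN* and *ANGPTL1* were thus the 2 factors that did not overlap in any comparison, in opposite orders.

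**Figure D5:**
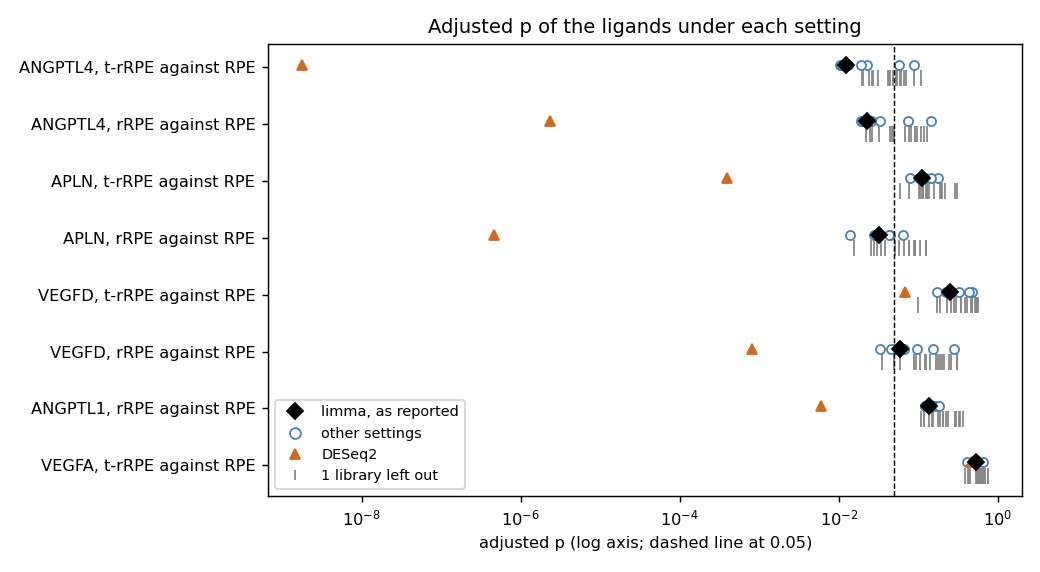
Adjusted p (horizontal axis, log scale, dashed line at 0.05) of *ANGPTL4*, *APLN*, *VEGFD*, *ANGPTL1* and *VEGFA* in comparisons with RPE. Diamonds are the limma values of the text, circles other settings, triangles DESeq2 and ticks limma with 1 library left out. The DESeq2 values of *ANGPTL4*, *APLN* and, in rRPE, *VEGFD* and *ANGPTL1* lie left of the line and of every other setting of the same gene and comparison, limma values of *ANGPTL4* and of *APLN* in rRPE fall on both sides of the line, and those of *VEGFA* stay to its right.

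Other relatives of the 8 factors and the wider set of vessel-acting genes gave few calls. Of 9 further family ligands 5 were found, and none was a DEG in limma, edgeR or DESeq2 in any comparison, where 3, 1 and 0 had an unadjusted p of at most 0.05 in t-rRPE, in rRPE and between them (12.4%, 12% and 9.31% of all genes). *ANGPTL2*, with the highest mean count of them, was 152, 506 and 238 in RPE, 828, 794 and 473 in t-rRPE, with 519.792, 628 and 853 in rRPE, giving log2 fold changes of 1.36 (SE 0.48, limma adjusted p = 0.292) and 1.31 (SE 0.48, limma adjusted p = 0.29). *APELA*, which encodes another peptide for APLNR, held at most 70.5 normalized counts in any library. Fitted values were lower for 3 of the 5 ligands in t-rRPE (median log2 -2.13) and for 4 in rRPE (median -1.14). *PGF*, *ANGPT4* and *ANGPTL5* were at 0 in every t-rRPE library, and the size of the t-rRPE median depended on the tool (-7.42 in edgeR). Of 9 angiogenesis inhibitors found, *TIMP3*, an inhibitor of metalloproteinases that also blocks KDR, was the only DEG. *TIMP3* was 2976, 3613 and 4390.04 in RPE, 1102, 481 and 1337 in t-rRPE, with 725, 916 and 716 in rRPE. It fell in t-rRPE (log2 -2.02, SE 0.36, limma adjusted p = 0.0355) and in rRPE (log2 -2.21, SE 0.36, limma adjusted p = 0.0169), with all retinectomy libraries below all intact ones. Its t-rRPE call was lost in edgeR (adjusted p = 0.0552) and without any 1 library other than t-rRPE replicate 2 (limma adjusted p = 0.0512 to 0.14), and its rRPE call without RPE replicate 2 or 3 or any rRPE library (0.0633 to 0.0853). The median of the 9 inhibitors was -0.27 in t-rRPE and -0.07 in rRPE. Of 11 other pro-angiogenic secreted factors found, none was a DEG in limma or edgeR in either comparison with RPE. In each comparison 6 had an unadjusted p of at most 0.05. DESeq2 called *TGFB2* in t-rRPE and *TGFB2* and *EGFL7* in rRPE. *TGFB2* was higher than in RPE (limma log2 2.27 in t-rRPE and 2.14 in rRPE). *EGFL7* was lower in rRPE than in RPE (limma log2 -1.79). *EGFL7* is also 1 of the 17 endothelial genes. Fitted values were higher for 5 of the 11 in t-rRPE (median log2 -0.08) and for 8 in rRPE (median 0.40), or 6 in edgeR and DESeq2. In rRPE 5 lay wholly above RPE and 1 wholly below (18.6% of all genes did not overlap). The largest fold change there was that of *HGF*, at 0, 217 and 2.31 in RPE, 506, 13.1 and 573 in t-rRPE, with 2145, 3207 and 1733 in rRPE (log2 7.99, SE 1.85, limma adjusted p = 0.0718). *SLIT2*, a guidance ligand with the highest mean count of the 11, was 2215, 3272 and 2779 in RPE, 4558, 3986 and 5266 in t-rRPE, with 3716, 3209.72 and 3857 in rRPE, giving log2 fold changes of 0.75 (SE 0.20, limma adjusted p = 0.151) and 0.40 (SE 0.20, limma adjusted p = 0.464). *CYR61*, a matrix protein gene that growth factors induce, was 989.809, 646 and 813 in RPE, 664, 433 and 721 in t-rRPE, with 1017, 2083 and 1273 in rRPE, where its log2 fold change was 0.79 (SE 0.35, limma adjusted p = 0.405). Between rRPE and t-rRPE it was 1.23 (SE 0.35, limma adjusted p = 0.284), and DESeq2 called it there. In that comparison 8 of the 11 had higher and 3 lower fitted values (median log2 1.27), with 0 called by limma and edgeR.

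FGF2 acts through MAPK signalling, and 13 feedback and immediate early genes of that pathway were set beside the factors. None was a DEG in t-rRPE in limma or edgeR, with 5 at an unadjusted p of at most 0.05 (12.4% of all genes) and 2 by DESeq2. In rRPE 2 were DEGs, *FOS* (log2 4.55, SE 0.74, limma adjusted p = 0.0177) and the phosphatase gene *DUSP5* (log2 1.63, SE 0.25, limma adjusted p = 0.0132). *DUSP5* was 5205, 3579.86 and 4453 in RPE, 7860.39, 5608 and 6900.08 in t-rRPE, with 10365, 11670.1 and 20345 in rRPE, without overlap of the 3 groups. The *DUSP5* call was lost without RPE replicate 2 or 3 or rRPE replicate 2 (limma adjusted p = 0.051 to 0.0671), and that of *FOS* without rRPE replicate 2 or 3 (0.0842 to 0.108). In rRPE 10 of the 13 had an unadjusted p of at most 0.05 (12% of all genes), edgeR called 2 and DESeq2 6. Fitted values were higher for 7 of the 13 in t-rRPE (median log2 0.10) and for 12 in rRPE (median 2.21). The t-rRPE result depended on the tool, with 9 of the 13 higher in edgeR (median 0.61) and in DESeq2 (median 0.62). Between rRPE and t-rRPE all 13 had higher fitted values (median log2 2.18), with 7 at an unadjusted p of at most 0.05 (9.31% of all genes). There limma and edgeR called 0 of them, and DESeq2 called 4 (*DUSP1*, *FOS*, *DUSP5* and *SPRY2*). Fitted values of *VEGFD*, *ANGPT2* and *ANGPTL1* were higher in rRPE than in t-rRPE (limma adjusted p = 0.702, 0.583 and 0.668). Those of the other 5 factors, *ANGPTL4* among them, were lower. None of these differences passed the test, and the part of MAPK signalling in the factors was not tested.

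For each factor the 3 genes with the most similar log2 values over the 9 libraries were found among genes with a mean of at least 50 normalized counts, as a description. The 9 points share 3 groups and their libraries. *ANGPTL4* was nearest to *KIAA0319* (Pearson r = 0.961), *E2F6* (0.955) and *CHST1* (0.951), and *APLN* to *RPL32* (0.985), *EPHB1* (0.967) and *PRR7* (0.951). For *APLN* the r of deviations from the group means was only 0.374 to 0.559, so most of that likeness lay between groups. *VEGFA* was nearest to *ATAD1* (0.971), *CRCP* (0.963) and *AHI1* (0.952), with r of 0.940 to 0.985 within groups, so its pattern lay in single libraries. *VEGFC* was nearest to *NEU3* (0.940), *MESDC2* (0.929) and *CTBP2* (0.916), and *VEGFD* to *TSPAN3* (0.964), *NUMB* (0.955) and *GPR89A* (0.936). *ANGPTL1* was nearest to *GPR89A* (0.984), *RP2* (0.970) and *DUSP5* (0.949), which makes *GPR89A* a neighbour of both *VEGFD* and *ANGPTL1*. *ANGPT1* was nearest to *MMAB* (0.978), *NKTR* (0.975) and *ND4L* (0.955), and *ANGPT2* to *LMNB1* (0.973), *TGM2* (0.969) and *IPO11* (0.956). The r within groups was also high for *ANGPT1* (0.976 to 0.988), *ANGPT2* (0.961 to 0.973), *VEGFC* (0.899 to 0.935) and *VEGFD* (0.877 to 0.950). Likeness to their neighbours thus also lay in single libraries. For *ANGPTL1* that r was 0.771 to 0.918 and for *ANGPTL4* 0.690 to 0.928.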

How the data were processed

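The deposited signal is the number of reads on each gene divided by the size factor that DESeq2 gave a library, which the authors made by trimming single-end poly(A) reads with Trim Galore 0.6.1 and cutadapt 1.18, aligning them to GRCg6a with STAR 2.7.3, counting with StringTie 2.0.4 without strand and scaling with DESeq2 1.22.2. All values of a library were whole multiples of its smallest one (tolerance 0.01, share 1), so whole reads were recovered. Libraries were amplified from small amounts of RNA without molecular identifiers. The p-values measure the spread between libraries, in which differences of embryo, capture and amplification cannot be told apart. The 100 genes with a summed normalized count under 20 were left out. The other 16535 entered as log2(normalized count + 1) a fit with limma 3.58.1 (eBayes with a trend) in R 4.3.3, in 1 model of group means without pairing. Alternatives were offsets of 0.5 and 5, no filter, a mean of at least 10, quantile and upper-quartile scaling, the replicate number as a block, no trend, only the 6 libraries compared, each library left out, and edgeR 4.0.16 and DESeq2 1.42.0 on recovered reads, where limma calls 111, 170 and 9 genes, edgeR 48, 101 and 6, and DESeq2 517, 574 and 230 (t-rRPE and rRPE against RPE, rRPE against t-rRPE). The fits were tested on simulated data. Ratios were tested by exact permutation in Python 3.11.15 with scipy 1.17.1, numpy 2.4.6 and pandas 2.3.3, and figures drawn with matplotlib 3.10.9. The members and lists were chosen with earlier results of these data known. The text names all members and receptors. From each other list of vessel or pathway genes it names those called, or the 2 with the highest mean normalized count where none was. It adds some genes called only by DESeq2, relatives at 0 in a group, and *HGF* for its fold change. From the lists of cell type markers it names called genes that a result turns on. From the endothelial list it also names genes called only by DESeq2 and genes that were not lower. For each member it names the 3 most similar genes. Gene names come from the files, and all 8 members matched RefSeq by symbol, where overlaps of whole gene spans were looked up. RefSeq is of another assembly, so no position is given.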

Additional observations from a re-analysis of the deposited data

How the results depend on the processing

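In t-rRPE against RPE, 111 genes were called by limma, 64 with the replicate block, 73 without the trend, 0 in a fit of only the 6 libraries compared (1689 at an unadjusted p of at most 0.05), 48 by edgeR and 517 by DESeq2. In rRPE against RPE the counts were 170, then 71 without the trend, 101 by edgeR and 574 by DESeq2. In rRPE against t-rRPE they were 9, then 31 without the trend, 0 in only the 6 libraries (1276 at an unadjusted p of at most 0.05) and 230 by DESeq2. With each library left out they ranged from 9 to 154, from 33 to 256 and from 0 to 14. Where omissions kept the genes passing the filter over all 9 libraries, a variant added after seeing the data, the lowest count was 0 in each comparison. Of the 8 factors, 0 were called in t-rRPE without the trend and in only the 6 libraries (3 at an unadjusted p of at most 0.05 in limma) and 2 by DESeq2 (*APLN* and *ANGPTL4*). In rRPE 1 was called without the trend and 1 in only the 6 libraries (*APLN* in both), and 4 by DESeq2, which added *VEGFD* and *ANGPTL1*. With a library left out the counts were 0 to 1 and 0 to 3.

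*ANGPTL4* in t-rRPE lost its call without the trend (log2 1.50, limma adjusted p = 0.0871) and in only the 6 libraries (1.50, 0.0563), and with a library left out ranged from 1.40 to 1.57 (adjusted p 0.0197 to 0.0704, 3 of 9 lost). In rRPE it lost it without the trend (1.19, 0.144) and in only the 6 libraries (1.19, 0.0745), and ranged from 1.01 to 1.37 (0.0219 to 0.0967, 4 of 9 lost). *APLN* in rRPE lost its call with the replicate block (-1.40, 0.0641) and ranged from -1.46 to -1.33 (0.0273 to 0.125, 6 of 9 lost). Omissions that kept the genes passing the filter over all 9 libraries were added after seeing the data, and lost 5, 5 and 6 of 9 of these calls.

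The sign turned for *VEGFC* in t-rRPE (-0.14 to 0.24 over single omissions, -0.05 without RPE replicate 3, -0.14 without t-rRPE replicate 1), *ANGPT1* in t-rRPE (-1.22 to 0.66, with 0.66 without t-rRPE replicate 2), *ANGPT2* in t-rRPE (0.20 in edgeR, 0.21 in DESeq2, -1.48 to 0.99 over omissions, with 0.99 without t-rRPE replicate 1) and *VEGFA* in rRPE (-0.26 to 0.49, with -0.26 without rRPE replicate 3). No other sign of the 8 factors turned in the 3 comparisons under the alternatives run, and the causes were not tested.

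Deviations of same-numbered libraries from their group means correlated at only -0.03 to 0.06 over 9 pairs. Yet 7 of 9 libraries were nearest to one of their own number, so pairing by replicate number was not settled. Besides *APLN*, the block changed the call of *VEGFD* in rRPE (log2 1.13, limma adjusted p = 0.0333) and of no other factor. *ANGPT2* held 6 reads in t-rRPE replicate 1, and the limits set by depth were not tested.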
